A study of Mus musculus with 2 samples.

Results

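The genes described here are the matrix metalloproteinases (Mmp), the tissue inhibitors of metalloproteinases (Timp) and the Adamts proteases, measured by single-cell RNA sequencing of cells from CT26 tumours in BALB/c mice. A gene was a member when its symbol was Mmp, Timp or Adamts followed by a number and an optional letter, and it was measured when it had at least 50 UMIs (unique molecular identifiers, counted transcript molecules) over both libraries. Of 32285 gene rows, 45 were members and 22 were measured. These were 11 Mmp genes of 22 (Mmp3, Mmp8, Mmp9, Mmp10, Mmp11, Mmp12, Mmp13, Mmp14, Mmp19, Mmp25 and Mmp27), 3 Timp genes of 4 (Timp1, Timp2 and Timp3) and 8 Adamts genes of 19 (Adamts1, Adamts4, Adamts5, Adamts6, Adamts7, Adamts9, Adamts10 and Adamts14).

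CT26 is a mouse colon carcinoma line that grows in BALB/c hosts. The study compared cells taken from tumours of mock CT26 cells with cells from tumours of CT26 cells expressing PTIR1, to examine the leukocytes in them. There was 1 library per group, called the mock library and the PTIR1 library here. Both came from BALB/c tumours, and no sorting step, age, time or number of animals was given in the sources used here. The labels call the source tumour-infiltrating lymphocytes, yet cells with fibroblast and tumour cell markers were also found. Numbers of cells in a class were therefore not read as the make-up of the tumours. Without replicate libraries no difference below has a test, and each 95% interval below reflects counting error alone. Pairs of values give the mock library before the PTIR1 library.

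Mmp proteins are zinc-dependent secreted or membrane-bound proteases that cleave collagens, proteoglycans and other matrix proteins. Most are made as inactive precursors, and Timp proteins bind the active enzymes and block them. Adamts proteases are secreted relatives with thrombospondin repeats, and several of them cleave large proteoglycans such as aggrecan and versican. In tumours, macrophages, neutrophils and fibroblasts are known sources of Mmp proteins.

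The mock library held 10833 barcodes with a median of 2357 UMIs, and the PTIR1 library 9006 barcodes with a median of 4933. After filters on genes, mitochondrial share, doublets and depth, 6057 mock and 6068 PTIR1 cells were kept, and marker gates placed 3505 and 3406 of them in 11 classes. The gates used no member gene, and no class had a marker of another class among its 10 leading genes by fold. Between 4 and 8 own markers were highest in the macrophage-like, fibroblast-like and CT26 tumour cell-like classes, with the fewest in the mock CT26 tumour cell-like class, where Krt18, Krt8, Tm4sf1 and Areg were. Cells were chosen by these same markers, and cells with enough markers of another class were left out. Both observations were thus partly fixed by the gates. Endothelial cells, another possible source of these genes, had 3 of their markers in 4 kept cells of each library, and pericytes in 0. The libraries shared 30 barcodes. Fibroblast-like cells were very unequal in number, at 27 mock against 522 PTIR1 cells, so mock values for them rest on 952003 UMIs. Of these, 161989 lay in 1 mock cell, which also held the most Mmp14, Adamts1 and Timp2 UMIs of the mock fibroblast-like cells. Gated cells held between 17.6% (Adamts4, mock) and 76.2% (Adamts5, PTIR1) of a member's UMIs, and the rest lay in barcodes outside the classes.

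Of the 23 members that were not measured, 8 had 0 UMIs (Adamts8, Adamts15, Adamts16, Adamts18, Adamts19, Mmp1b, Mmp16 and Timp4). Another 15 had between 1 and 49 UMIs, among them Mmp2, a gelatinase, with 37 UMIs and Mmp28 with 41. Just inside the limit were Adamts4 with 50 and Mmp10 with 55 UMIs. A 3' UMI count is 1 per captured molecule whatever its length, so levels can be compared between genes only as far as capture at the 3' end was alike.

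Several Mmp genes lie in 1 cluster, and their promoters are shown because its members had very different levels in the same cells. On chromosome 9 (mm10, GENCODE vM21), 9 Mmp genes lay within 427.1 kb, in the order Mmp13, Mmp12, Mmp1b, Mmp3, Mmp10, Mmp8, Mmp27, Mmp20 and Mmp7, and 6 of them were measured. The lines below give, 5′ to 3′ on the plus strand, the 120 bases before the RefSeq start (GRCm38.p6) of each measured gene. Capitals mark TGANTCA, the consensus bound by AP-1 (Fos and Jun) dimers, and TATAAA, the TATA box. The stretches run from chr9:7272394-7272513 for Mmp13 to chr9:7571276-7571395 for Mmp27.
Mmp13: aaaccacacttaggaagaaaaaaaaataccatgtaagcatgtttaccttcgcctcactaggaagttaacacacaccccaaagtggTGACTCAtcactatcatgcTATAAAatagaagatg
Mmp12: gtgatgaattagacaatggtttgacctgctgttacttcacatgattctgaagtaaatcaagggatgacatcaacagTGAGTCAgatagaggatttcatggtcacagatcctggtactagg
Mmp3: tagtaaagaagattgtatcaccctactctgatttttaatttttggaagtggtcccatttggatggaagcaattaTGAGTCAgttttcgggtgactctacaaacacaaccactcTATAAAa
Mmp10: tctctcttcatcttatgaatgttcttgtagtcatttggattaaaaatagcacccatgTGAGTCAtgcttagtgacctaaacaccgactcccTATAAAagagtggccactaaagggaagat
Mmp8: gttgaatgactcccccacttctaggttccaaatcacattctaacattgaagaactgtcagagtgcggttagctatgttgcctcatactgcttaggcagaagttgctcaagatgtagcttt
Mmp27: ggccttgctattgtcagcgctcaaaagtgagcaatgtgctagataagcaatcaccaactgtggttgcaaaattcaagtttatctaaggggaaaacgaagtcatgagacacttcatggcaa

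Mmp13, Mmp12, Mmp3 and Mmp10 each held TGANTCA, beginning 35, 44, 46 and 63 bases before the start. In Mmp13, Mmp3 and Mmp10 a TATAAA followed, 16, 7 and 29 bases before the start, and in Mmp12 a match of that motif began after the start. Mmp8 and Mmp27 held neither motif whole in the stretch printed. The Mmp12 line (chr9:7347254-7347373) belongs to the downstream of its 2 RefSeq starts, and the window of the upstream start held neither motif. RefSeq windows of 300 bases (250 before and 50 after the start) were found for 15 of the 22 measured members and were missing for Adamts10, Adamts4, Adamts5, Adamts6, Adamts7, Mmp19 and Mmp9. Searched on both strands, TGANTCA was in 4 of the 16 windows of measured members, all 4 in this cluster, against 7.81% of 32851 windows of all genes. Both motifs together were in 4 of 16 windows against 1.54% of all windows. Neighbouring genes of 1 cluster share ancestry, so these are not independent cases, and a match is only a description of the letters.

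The members divided by cell class. By the mean of both libraries, 7 had their highest CPM (UMIs divided by all UMIs of the class and library, times 1000000) in fibroblast-like cells (Timp2, Mmp3, Adamts1, Mmp11, Adamts7, Adamts4 and Mmp10), 5 in macrophage-like cells (Mmp12, Mmp8, Mmp13, Mmp14 and Mmp19), 2 each in neutrophil-like, mature dendritic cell-like, mast cell-like and NK cell-like cells, and 1 each in T cell-like and CT26 tumour cell-like cells. For 16 of 22 the class was the same in both libraries. Mmp27 in neutrophil-like cells rested on 1 and 2 UMIs, at 3.68 and 4.68 CPM against 3.53 and 1.95 CPM in macrophage-like cells. Adamts4 had 1 and 11 UMIs in fibroblast-like cells, and Mmp10 had 11 PTIR1 UMIs there. Mmp8 was nearly as high in neutrophil-like cells, at 155 and 159 CPM against 160 and 168 CPM. Mmp14 was highest in fibroblast-like cells in the PTIR1 library, at 97.7 against 92.7 CPM. The share of all genes by highest class is not given. The highest level of all was that of Timp1 in CT26 tumour cell-like cells, at 1245 and 1409 CPM.

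**Figure D1:**
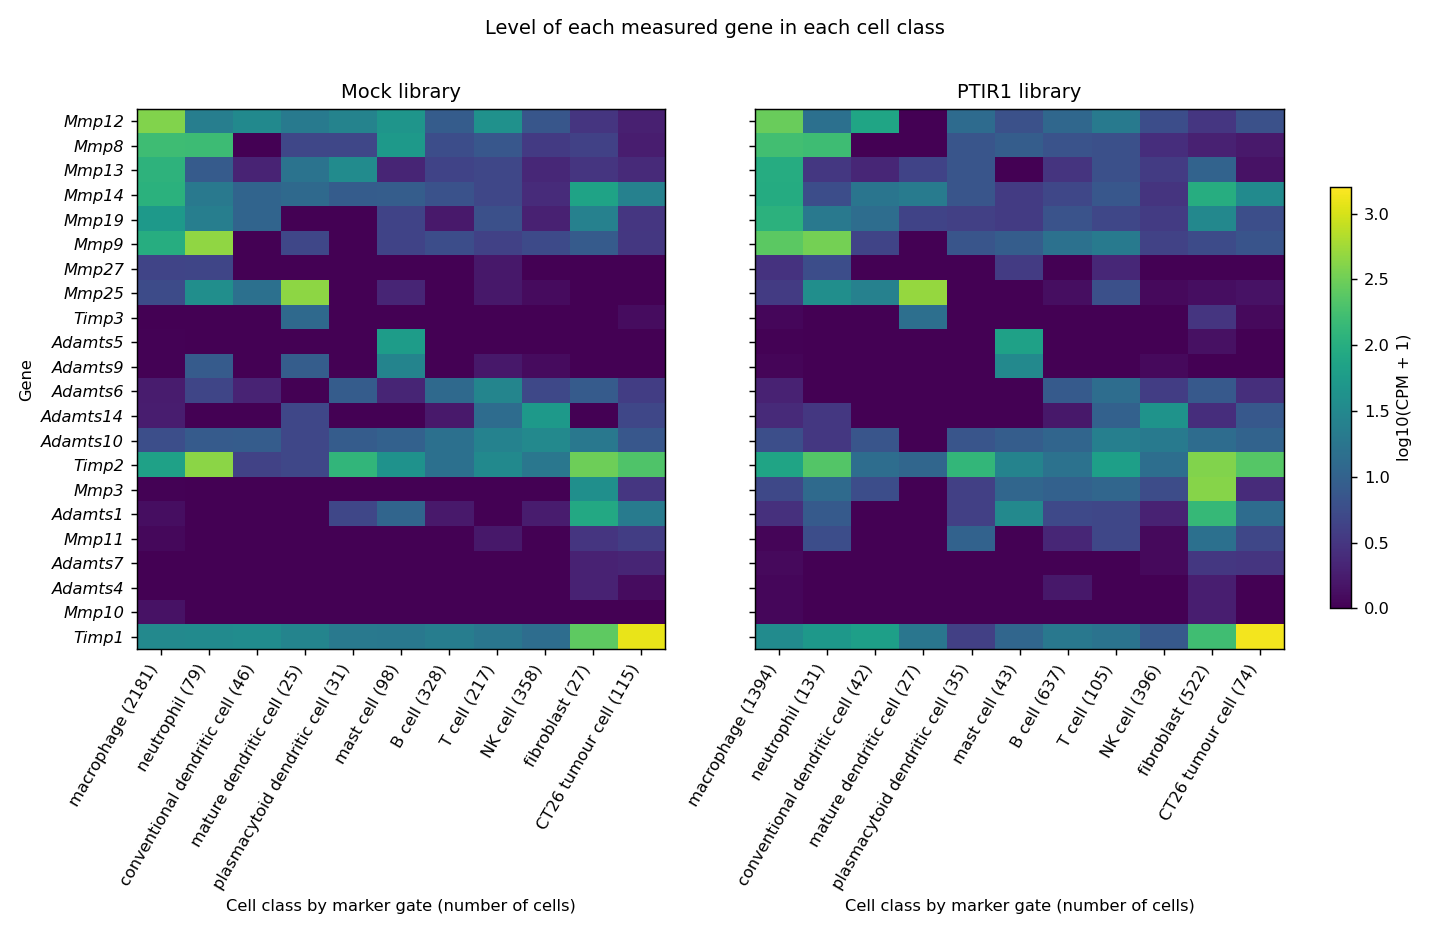
Level of the 22 measured genes (rows) in 11 cell classes (columns, with the number of cells) in the mock and PTIR1 libraries, as log10(CPM + 1) by colour. Mmp12, Mmp8 and Mmp13 are bright in macrophage-like cells, Mmp25 in mature dendritic cell-like cells, and Timp1 in CT26 tumour cell-like cells, where it reached 1245 and 1409 CPM.

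Macrophage-like cells (2181 mock and 1394 PTIR1 cells, median depths of 13094 and 12999 UMIs) carried the broadest set of Mmp transcripts. Mmp12, the macrophage elastase, led with 387 CPM (380 to 394) and 289 CPM (282 to 297). Mmp8, a collagenase best known from neutrophil granules, stood at 160 and 168 CPM. Mmp13, another collagenase, stood at 116 and 94.7 CPM, and Mmp14, a membrane-anchored protease that activates other Mmp precursors, at 109 and 92.7 CPM. The summed Mmp level was 929 and 1013 CPM, a ratio of 1.09 (1.07 to 1.11), while its make-up differed: Mmp12 supplied 41.6% of these UMIs in mock and 28.6% in PTIR1 cells.

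The genes with the largest ratios above background in macrophage-like cells were Mmp9 and Mmp19. Mmp9 (chr2:164940780-164955850, plus strand), a gelatinase that cleaves denatured and type IV collagen, was at 97.3 CPM (93.8 to 101) and 248 CPM (241 to 255), a ratio of 2.55 (2.44 to 2.67). Mmp19 (chr10:128790910-128800824, plus strand), a secreted protease of basement membrane proteins, was at 50.7 CPM (48.2 to 53.2) and 112 CPM (107 to 116), a ratio of 2.20 (2.06 to 2.35). Both also had UMIs in more cells. With each cell thinned to 1000 UMIs, 5.14% of mock and 8.97% of PTIR1 macrophage-like cells had a Mmp9 UMI, and 5.18% and 9.40% had a Mmp19 UMI. Without thinning these shares were 14.7% and 26.8% for Mmp9 and 34.7% and 48.9% for Mmp19. In B cell-like cells, which served as the background class (median depths of 4296 and 4504 UMIs), 2.13% and 7.38% of unthinned cells had a Mmp9 UMI, and 0.305% and 2.83% a Mmp19 UMI. The levels there were 4.74 and 14.8 CPM of Mmp9, so the background was also higher in the PTIR1 library.

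Of the 13 members with at least 50 UMIs in macrophage-like cells, 3 were at least 2-fold higher in the PTIR1 library, beside 1.64% of all 11263 genes measured there. None of the 13 was at least 2-fold lower, beside 0.897% of all genes. The median log2 ratio was 0.07 over the members and -0.03 over all genes. Thinning each cell to 1000 UMIs took the Mmp9 ratio to 1.90 and the Mmp19 ratio to 1.91, just under the 2-fold limit. It left no member counted as 2-fold higher, since the third gene, Mmp3, kept a ratio of 28.2 but only 19 UMIs, under the 50 required. Without thinning it had 1 mock UMI and 78 PTIR1 UMIs (3.90 CPM). PTIR1 B cell-like cells held Mmp3 at 8.88 CPM, above that level, so the macrophage value was not above background.

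Mmp12, Mmp13 and Mmp14 were lower in PTIR1 macrophage-like cells by less than 2-fold. Their ratios were 0.749 (0.726 to 0.773), 0.815 (0.770 to 0.862) and 0.848 (0.801 to 0.897). Mmp8 was at a ratio of 1.05 (1.004 to 1.096). The weakly detected Mmp27 (3.53 and 1.95 CPM) and Mmp25 (4.43 and 2.60 CPM) had ratios of 0.553 and 0.587. The inhibitors were close between the libraries, with Timp2 at 66.1 and 72.6 CPM and Timp1 at 30.9 and 34.0 CPM, and both levels of Timp1 were under 10% of those in CT26 tumour cell-like cells.

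**Figure D2:**
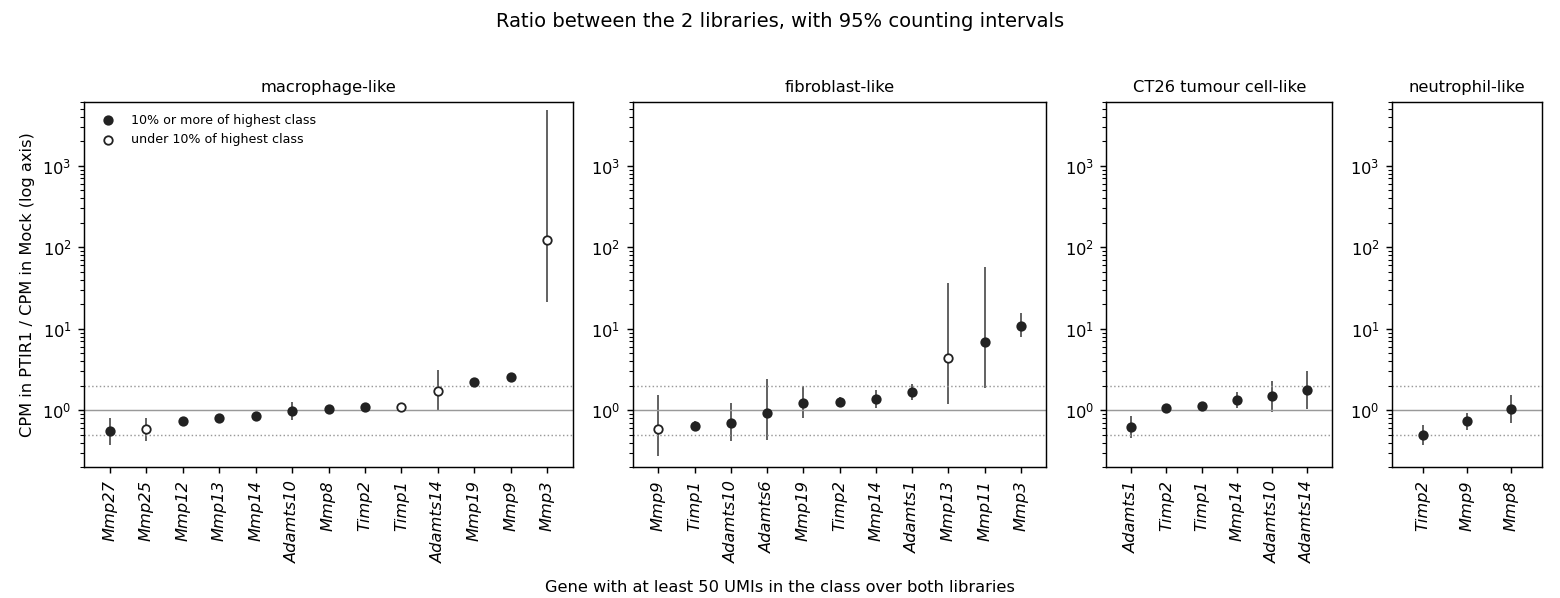
Ratio of the CPM in the PTIR1 library to that in the mock library (log axis) for each member with at least 50 UMIs in the class, with 95% counting intervals. Open points mark members under 10% of their highest class in both libraries, and dotted lines mark 2-fold. Mmp9 (2.55) and Mmp19 (2.20) lie above 2-fold in macrophage-like cells, and Mmp3 (10.9) and Mmp11 (6.84) in fibroblast-like cells.

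Marker sums of other classes moved with the library inside the macrophage-like class. The 6 neutrophil markers summed to 229 CPM and 541 CPM, the 8 fibroblast markers to 6.51 and 32.2 CPM, and the 8 CT26 tumour cell markers to 18.9 and 48.6 CPM with 2 of them at 0. In PTIR1 neutrophil-like cells the neutrophil markers summed to 95789 CPM and Mmp9 to 337 CPM. The part of RNA from neutrophils, fibroblasts and tumour cells in the macrophage ratios was not tested.

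Macrophage-like cells were split into 4 ranges by Arg1, C1q and monocyte genes, at limits shared by both libraries. The Arg1 high range held 36.2% of mock and 50.7% of PTIR1 macrophage-like cells, and 331 cells of both libraries lay within 0.5 log2 units of its limit. Arg1 codes for arginase 1, an arginine-consuming enzyme of tumour macrophages. In the mock library this range had the highest Mmp8, Mmp9, Mmp12, Mmp13 and Mmp14, for example 758 CPM of Mmp12 against 98.0 to 222 CPM in the other ranges. Mmp9 stood at 228 CPM there in the mock library, against 6.86 to 24.99 CPM elsewhere.

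Mmp19 was higher in the PTIR1 library in each of the 4 ranges, with ratios of 2.09 in Arg1 high cells, 1.79 in C1q high and Arg1 low cells, 1.95 in cells with high monocyte markers and 2.61 in cells low in all. Mmp9 had ratios of 1.63, 1.56 (0.910 to 2.62), 3.07 and 7.64 in the same order, so its size varied far more. In cells low in all it went from 24.99 to 191 CPM, the latter from 805 UMIs. The highest single PTIR1 macrophage-like cell held 332 Mmp9 UMIs, and how far the ratios by range rest on few cells was not tested. Mmp12 was lower in each range, with ratios of 0.585, 0.582, 0.543 and 0.737, all further from 1 than the 0.749 of the whole class. Mmp8 went different ways, with ratios of 0.729 and 0.436 in the ranges high in Arg1 or C1q and 1.56 and 1.40 in the others. Timp2 was highest in C1q high and Arg1 low cells, at 227 and 259 CPM.

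**Figure D3:**
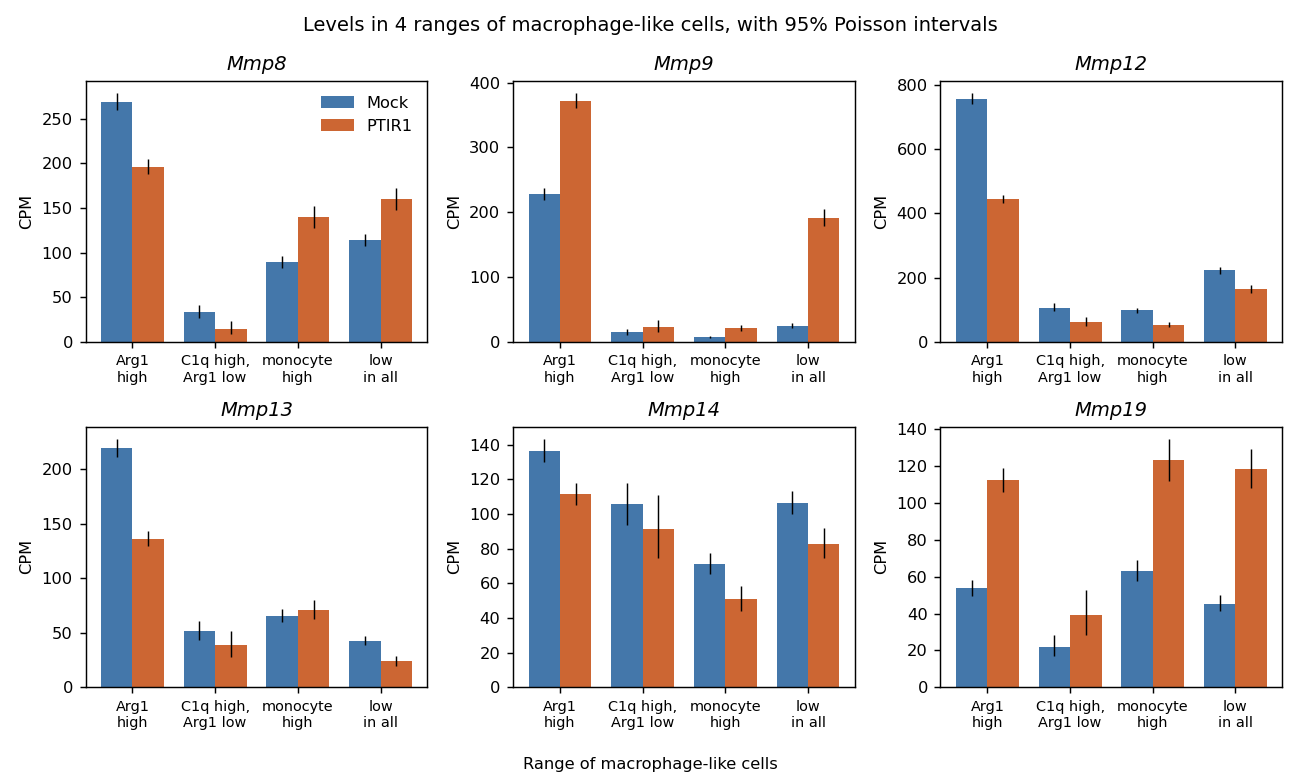
CPM of 6 Mmp genes in 4 ranges of macrophage-like cells in the mock and PTIR1 libraries, with 95% Poisson intervals as error bars. Mmp19 is higher and Mmp12 lower in the PTIR1 library in every range, and Mmp9 differs most in cells low in all, from 24.99 to 191 CPM. Few cells held most Mmp9 UMIs, and its ratios by range were not computed without them.

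The UMIs of some of these genes sat in few cells. The 10% of macrophage-like cells with the most Mmp9 UMIs held 96.6% of its UMIs and 91.4%, and the top 1% held 53.9% and 41.9%. Mmp13 was nearly as uneven, with 88.3% and 89.5% in the top 10%. Mmp14 was the most even, with 41.7% and 45.9%. The highest single cells had 239 and 332 UMIs of Mmp9, 376 and 680 UMIs of Mmp12, and 16 and 28 UMIs of Mmp14. At 1000 UMIs per cell, 43 mock cells had UMIs of both Mmp9 and Mmp12, which was 38.4% of the Mmp9 cells against 17.5% of all macrophage-like cells with Mmp12. In the PTIR1 library this was 25.6% against 13.3%. The pair was not particular: Mmp12 was in 51.9% of mock Mmp13 cells, 41.9% of Mmp8, 23.8% of Mmp14 and 18.6% of Mmp19 cells. In the PTIR1 library these shares were 34.1%, 26.7%, 19.3% and 16.0%.

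**Figure D4:**
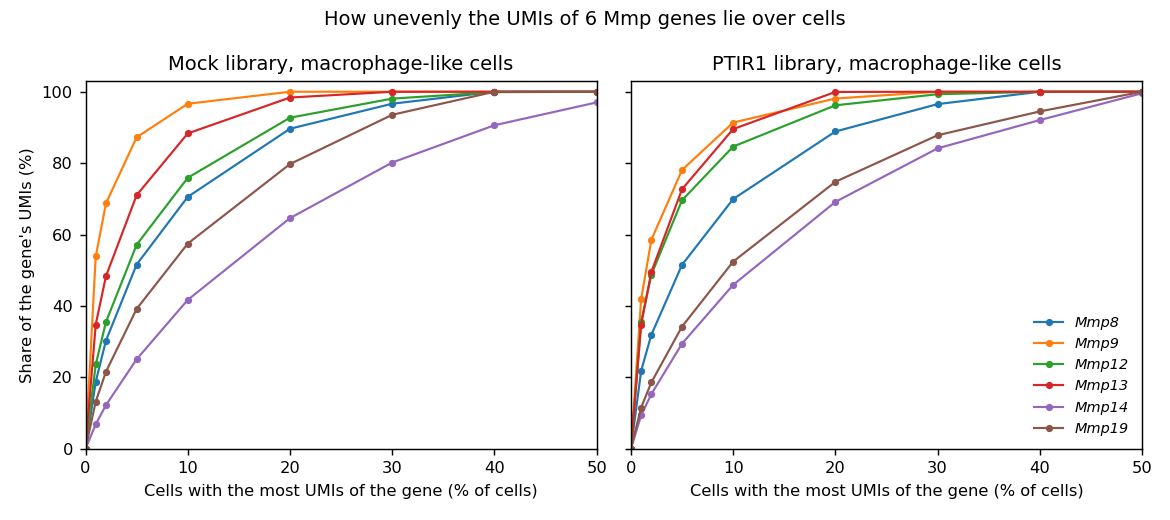
Share of a gene's UMIs (y, percent) held by the macrophage-like cells with the most UMIs of it (x, percent of cells, shown to 50%) for 6 Mmp genes in each library. Mmp9 climbs fastest, to 96.6% and 91.4% at 10% of cells, and Mmp14 slowest, to 41.7% and 45.9%.

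Fibroblast-like cells held the most Mmp3, Adamts1 and, in the PTIR1 library, Timp2. Mmp3 (chr9:7445822-7455975, plus strand), also called stromelysin, degrades proteoglycans and activates other Mmp precursors. It was at 37.8 CPM (26.5 to 52.4, 36 UMIs) and 412 CPM (401 to 423, 5445 UMIs), a ratio of 10.9 (7.86 to 15.6). A similar share of fibroblast-like cells had a Mmp3 UMI in both, 33.3% and 35.8%, at median depths of 29384 and 23564 UMIs. In cells with a UMI, the median was 4 UMIs and 11 UMIs. Cells with 10 or more Mmp3 UMIs were 1 of 27 and 96 of 522, and the highest cells had 10 and 243 UMIs. The top 10% of PTIR1 fibroblast-like cells held 78.2% of its UMIs. At 1000 UMIs per cell Mmp3 was found in 16.3% (13.2 to 19.7%) of PTIR1 and in 0 of 27 mock fibroblast-like cells, where 0 allows up to 12.8% by the exact interval.

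Mmp11, stromelysin 3, a protease of stromal fibroblasts, had 2 UMIs (2.1 CPM) in mock and 190 UMIs (14.4 CPM) in PTIR1 fibroblast-like cells, a ratio of 6.84 (1.87 to 56.9). Mmp13 had 2 and 123 UMIs (2.1 and 9.30 CPM, ratio 4.43, 1.2 to 37.0) and lay under 10% of the macrophage level in both libraries. These 3 genes of 11 measured were at least 2-fold higher in the PTIR1 library, beside 6.01% of all 9849 genes of the class. None was at least 2-fold lower, beside 2.93% of all genes. The median log2 ratio was 0.35 over the members and 0.01 over all genes.

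Adamts1 (chr16:85793827-85803113, minus strand), a protease of versican and aggrecan, was at 84.0 CPM (66.6 to 105) in mock and 140 CPM (134 to 147) in PTIR1 fibroblast-like cells, a ratio of 1.67 (1.33 to 2.11). Mmp14 was at 71.4 and 97.7 CPM, a ratio of 1.37 (1.07 to 1.77), and Mmp19 at 24.2 and 30.03 CPM. Timp2, which inhibits Mmp proteins and also takes part in activating the Mmp2 precursor with Mmp14, was found in 100% and 99.0% of fibroblast-like cells, at 309 CPM (275 to 346) and 394 CPM (384 to 405). Timp1 was at 253 CPM (222 to 287) and 164 CPM (157 to 171), a ratio of 0.648 (0.567 to 0.744), but 1 mock cell held 101 of the 241 mock UMIs, and without it the ratio was 1.05 (0.887 to 1.26). The ratios of Mmp3, Adamts1, Mmp14 and Timp2 without their highest mock cell were 14.8, 1.82, 1.68 and 1.30. Only mock cells were left out, which favours a higher ratio, while single PTIR1 cells held up to 243 Mmp3 and 209 Timp1 UMIs. These ratios therefore do not show that the differences hold without single cells. Summed over all fibroblast-like cells, Timp transcripts were at 562 and 561 CPM, while Mmp transcripts were at 151 and 574 CPM. Mmp3 alone supplied 71.7% of the PTIR1 Mmp UMIs, so the Mmp sum mostly repeats that gene. The mock Timp sum includes the cell with 101 Timp1 UMIs. Fibroblast markers themselves summed to 2962 and 4073 CPM in this class, a ratio of 1.38, and CT26 tumour cell markers to 886 and 774 CPM. In CT26 tumour cell-like cells the same tumour cell markers summed to 1145 and 1102 CPM, so their sum separated these classes little. Fibroblast markers summed to 356 and 400 CPM there. Whether a different mix of fibroblasts or tumour cells among the 27 mock cells took part in the ratios of fibroblast-like cells was not tested. Without cells above 100000 UMIs the Mmp3 ratio was 10.2 and the Mmp11 ratio 5.68.

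**Figure D5:**
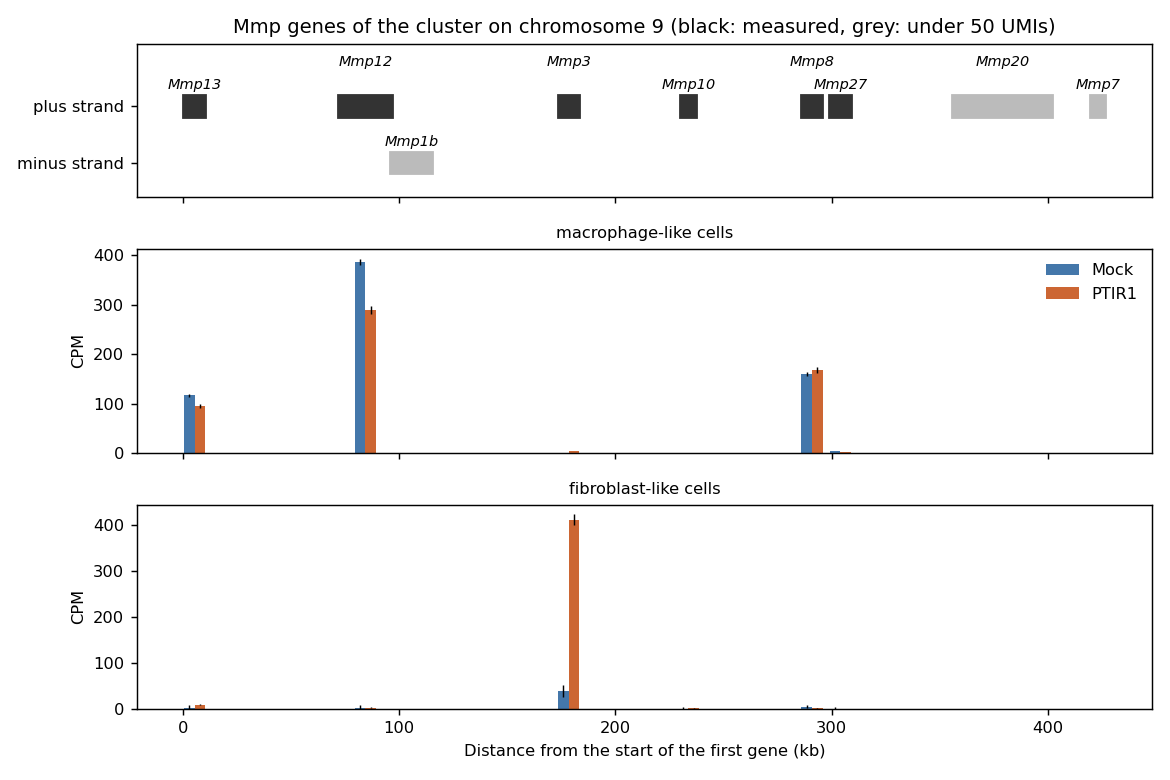
Upper panel, the 9 Mmp genes of the chromosome 9 cluster by distance from the start of the first gene in kb, measured genes in black. Lower panels, CPM of the 6 measured genes in macrophage-like and fibroblast-like cells of each library, drawn at the gene's position, with 95% Poisson intervals. Mmp12, Mmp8 and Mmp13 stand out in macrophage-like cells, and Mmp3 in PTIR1 fibroblast-like cells at 412 CPM.

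Neighbouring genes of the cluster were thus high in different cells. Mmp12 and Mmp13 were highest in macrophage-like cells in both libraries, and Mmp3, whose start lies 173.3 kb into the cluster against 71.9 kb for Mmp12, was highest in fibroblast-like cells. Mmp10, next to Mmp3 and with the same pair of motifs, had 24 mock and 31 PTIR1 UMIs in all barcodes. Mmp27, next to Mmp8, had 160 and 81 UMIs against 8382 and 6694 for Mmp8. Genes with the motifs in the stretches printed had very unlike levels in these cells. Any part of the motifs in these levels was not tested.

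CT26 tumour cell-like cells (115 mock and 74 PTIR1 cells, median depths of 63847 and 55016 UMIs) held far more UMIs of the inhibitors than of the proteases. Timp1 (chrX:20870166-20874735, plus strand) was at 1245 CPM (1220 to 1270) and 1409 CPM (1375 to 1444), and Timp2 was at 209 and 225 CPM. Timp1 was detected in 95.7% and 91.9% of these cells, against 8.84% and 8.63% of the shallower B cell-like cells. Their summed Mmp level was 37.6 and 55.9 CPM, most of it Mmp14 at 24.5 and 32.9 CPM, a ratio of 1.34 (1.08 to 1.67). Adamts1 was lower in the PTIR1 library here, at 20.2 and 12.7 CPM, a ratio of 0.626 (0.456 to 0.850). None of 6 members measured was at least 2-fold higher or lower, beside 0.994% and 1.39% of all 9154 genes, and the median log2 ratio was 0.30 against -0.09 over all genes.

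Neutrophil-like cells (79 mock and 131 PTIR1 cells, median depths of 3144 and 2844 UMIs) were led by Mmp9, which neutrophils store in granules, at 460 CPM (383 to 548) and 337 CPM (284 to 397). That ratio of 0.733 (0.572 to 0.938) rested in part on 4 mock cells with markers of immature neutrophils, which had 36 of the 125 mock UMIs. Without these 4 cells alone, Mmp9 stood at 363 CPM in mock, against 337 CPM in all PTIR1 cells. The 10 PTIR1 cells with such markers held Mmp9 at 76.7 CPM. Without the 4 mock and 10 PTIR1 cells, Mmp9 stood at 363 and 396 CPM. Timp2 was at 438 CPM (363 to 524) and 218 CPM (176 to 267), a ratio of 0.497 (0.375 to 0.657), and stood at 461 and 244 CPM without those cells. Mmp8 was at 155 and 159 CPM. Of the 3 members measured, 1 was at least 2-fold lower in the PTIR1 library, beside 3.66% of all 1530 genes, and none was at least 2-fold higher, beside 2.68%. The median log2 ratio was -0.45 over the 3 members and -0.02 over all genes. The Timp2 ratio lay at the 2-fold limit and went from 0.444 to 0.553 over the settings tried. Fibroblast markers in this class summed to 7.36 CPM and 150 CPM, with 3 of 8 at 0.

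Several smaller classes held a member at its highest level. Mature dendritic cell-like cells (25 and 27 cells) held Mmp25, a membrane-anchored protease, at 457 CPM (378 to 546) and 492 CPM (415 to 579), and neutrophil-like cells came next at 36.8 and 37.5 CPM. Mast cell-like cells (98 and 43 cells) held Adamts5, an aggrecanase, at 57.1 and 67.5 CPM, with at most 0.378 CPM in the next class. Adamts9 was also highest there, at 26.9 and 31.2 CPM. Adamts14, which trims the amino-terminal propeptide of fibrillar procollagens, was highest in NK cell-like cells (358 and 396 cells) at 51.4 CPM (44.6 to 58.8) and 43.3 CPM (37.7 to 49.5), with 36.3% and 36.6% of cells positive. NK cell-like and T cell-like cells also shared Adamts10, which takes part in fibrillin microfibril assembly. It was at 30.8 and 19.9 CPM in NK cell-like and 25.2 and 23.0 CPM in T cell-like cells, 2 neighbours whose mock intervals overlap. Adamts6 was highest in T cell-like cells, at 27.7 and 12.8 CPM from 44 and 10 UMIs. No member was highest in plasmacytoid dendritic cell-like cells, whose leading member was Timp2 at 127 and 130 CPM. Timp3, a matrix-bound inhibitor, was highest in mature dendritic cell-like cells by 3 and 4 UMIs, too few to set an order.

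Conventional dendritic cell-like cells (46 and 42 cells) held Mmp12 at 31.6 CPM (21.2 to 45.4) and 75.4 CPM (58.1 to 96.3), a ratio of 2.39 (1.52 to 3.84). The share of these cells with a Mmp12 UMI was 23.9% and 14.3%, so the higher PTIR1 level came from fewer cells. In T cell-like cells Timp2 was at 32.1 and 62.7 CPM and Mmp12 at 41.0 and 19.2 CPM. In B cell-like cells no member exceeded 21.6 CPM (Timp1, mock). The lowest of the measured members were Adamts4, Adamts7 and Mmp10, none of which reached 3 CPM in any class.

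Other genes of matrix turnover were compared from fixed lists, with the same 2-fold limit. Of 9 cathepsins in macrophage-like cells, Ctsk, a collagen-degrading cathepsin of osteoclasts, was higher in the PTIR1 library at 12.03 and 54.6 CPM, and the other 8 were within 2-fold. Of 7 genes that bind, activate or clear Mmp and Timp proteins, Lcn2, a neutrophil granule gene whose protein forms a complex with Mmp9, was higher at 2.89 and 10.2 CPM. All 6 Adam proteases measured and both Adamts-like genes were within 2-fold. Of 9 matrix genes 5 were higher, led by Col3a1 (7 and 67 UMIs) and Dcn (2.76 and 18.9 CPM), both of them fibroblast markers.

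In fibroblast-like cells 1 of 7 cathepsins was lower in the PTIR1 library, Ctss at 25.2 and 12.6 CPM, while Ctsl was at 1052 and 1733 CPM. Of 13 matrix genes 3 were higher, with Col3a1 at 110 and 351 CPM and Col6a1 at 54.6 and 159 CPM, while Col1a2 was at 1185 and 1105 CPM. Of 11 AP-1 and related factors 2 were higher, Junb at 759 and 1659 CPM and Fos at 1129 and 2344 CPM. In macrophage-like cells none of these 11 was at least 2-fold higher, with Ets2 (ratio 1.81) and Fosb (1.78) the largest. In CT26 tumour cell-like cells none was either, with Fos at 1.66 and Jund at 1.54. Among 8 genes that bind, activate or clear Mmp and Timp proteins in fibroblast-like cells, Lcn2 was higher at 23.1 and 60.7 CPM. Of 3 Adamts-like genes in these cells, Adamtsl4 was past the 2-fold limit at a ratio of 2.95 (0.792 to 24.8). That ratio rested on 2 mock and 82 PTIR1 UMIs, and its interval includes 1. Of 12 immediate early genes, 2 were higher in macrophage-like cells (Egr1, ratio 3.29, and Nr4a1, 2.58), 4 in fibroblast-like cells (led by Btg2 and Junb, Junb at 2.18, with Atf3 lower at 0.337) and 2 in CT26 tumour cell-like cells (Btg2, 2.57, and Zfp36, 2.17). These 12 genes, which also rise during tissue dissociation, had median log2 ratios of 0.71 in macrophage-like, 0.85 in fibroblast-like and 0.57 in CT26 tumour cell-like cells, and their part in the Mmp ratios was not tested.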

How the data were processed

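Single cells of 1 mock and 1 PTIR1 library were prepared with version 3.1 of the 10x 3' kit, per the labels' protocols. The deposited matrices hold UMI counts for each gene in each barcode. Cell Ranger 5.0.0, Seurat 3.2.3 and mm10 are named, per the submitters' processing notes, with no annotation version. Gene positions come from GENCODE vM21, in which 45 of 45 member identifiers carried the same symbol.

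Cells with at least 200 genes, at most 10% mitochondrial UMIs and at least 1000 UMIs were kept, after the highest Scrublet scores (scanpy 1.11.5) were removed at 0.8% per 1000 barcodes in both libraries (834 mock and 545 PTIR1 cells). Cells were gated on summed marker UMIs per 10000 and left out when another class had 2 or more markers at 50% of its limit or more. The gate limits, the ranges of macrophage-like cells and the 5 added settings were chosen after the data were seen, and the members and lists with earlier results of these data known.

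UMIs were summed per class and library and given as CPM, with exact Poisson intervals. Ratios have exact conditional binomial intervals and shares exact binomial intervals, all at 95%. The calculation of the ratio intervals was tested on simulated Poisson counts, the model that these intervals assume. Counts gathered in few cells, as for Mmp9, were not simulated, so coverage in these data was not tested. A ratio was computed at 50 or more UMIs in the class, and a member under 10% of its highest class in both libraries was marked as possible free RNA. All measured members are named. Values are given for the 3 highest members of the macrophage-like, fibroblast-like, CT26 tumour cell-like and neutrophil-like classes, and for members with a ratio interval wholly beyond 1.5-fold there. In the smaller classes some high members are not described above, such as Mmp8 in mast cell-like (51.5 and 7.79 CPM) and Timp1 in conventional dendritic cell-like cells (34.9 and 62.5 CPM). Of the other lists, genes past 2-fold in macrophage-like and fibroblast-like cells are counted and those ranked first are named, and CT26 tumour cell-like cells are given for 2 lists. In all, 9 planned and 5 added alternatives were run, each on the results it bears on. A further gene list is not reported here.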

Additional observations from a re-analysis of the deposited data

Results flagged for a closer look

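Leaving out classes in which a member was possible free RNA, for 6 members the ratio of PTIR1 to mock CPM had an interval above 1 in some classes and below 1 in others, and the difference between classes was not tested. Adamts1 had a ratio of 1.67 in fibroblast-like and 0.626 in CT26 tumour cell-like cells. Mmp9 had a ratio of 2.55 in macrophage-like and 0.733 in neutrophil-like cells. The latter depended on 4 mock and 10 PTIR1 cells with markers of immature neutrophils. Mmp12 had a ratio of 2.39 in conventional dendritic cell-like, 0.749 in macrophage-like and 0.469 in T cell-like cells. Mmp14 had a ratio of 1.37 in fibroblast-like and 1.34 in CT26 tumour cell-like cells against 0.848 in macrophage-like cells. Timp1 had a ratio of 1.13 in CT26 tumour cell-like and 0.648 in fibroblast-like cells, the latter resting on 1 mock cell, without which it was 1.05. Timp2 had ratios of 1.10 in macrophage-like, 1.95 in T cell-like and 1.28 in fibroblast-like cells against 0.497 in neutrophil-like cells.

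A signal outside the classes lay in cells with osteoclast genes. At least 4 of 6 such genes (Ctsk, Acp5, Ocstamp, Atp6v0d2, Dcstamp and Calcr, a list chosen after the data were seen) were present at 20 or more UMIs per 10000 in 1 mock and 8 PTIR1 cells. Of the 8, 6 were in no class and 2 were macrophage-like. Together the 8 held Mmp9 at 10343 CPM (9893 to 10808), from 10 to 686 UMIs in a cell, which was 16.8% of all Mmp9 UMIs of the PTIR1 library. The mock cell held 11 Mmp9 UMIs (203 CPM). Mmp14 was at 729 CPM in the 8 cells. The 2 macrophage-like cells held 9.0% of the Mmp9 UMIs of their class, and without them the macrophage ratio of Mmp9 was 2.33. The Mmp9 ratios in the 4 ranges of macrophage-like cells were not computed without these 2 cells.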

How the results depend on the processing

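Of the alternatives run on each result, 1 turned a direction: without the mock cell with the most Timp1 UMIs, the Timp1 ratio in fibroblast-like cells went from 0.648 to 1.05. No PTIR1 cell was left out in that setting. The Mmp3 and Mmp11 ratios in fibroblast-like cells could not be computed with thinned cells, which left 0 mock UMIs of either. The ratio ran from 1.90 to 2.65 for Mmp9 and 1.85 to 2.26 for Mmp19 in macrophage-like cells, from 7.07 to 16.5 for Mmp3 and 5.68 to 8.19 for Mmp11 in fibroblast-like cells, and from 0.444 to 0.553 for Timp2 in neutrophil-like cells. Counts of members at least 2-fold higher or lower were small and moved. In macrophage-like cells the 3 higher members became 0 with cells thinned to 1000 UMIs (Mmp9 1.90 and Mmp19 1.91, while Mmp3 at 28.2 had 19 UMIs, too few to count) and 5 when cells of 2 gates went to the higher score, and the 0 lower became 1 with gate limits doubled and 2 when each cell weighed the same. In neutrophil-like cells the 1 lower member became 0 when each cell weighed the same, with no doublets removed, with a mitochondrial share up to 20%, with cells of 2 gates kept, and with ratios centred on the median of all genes. In fibroblast-like cells the 3 higher became 6 at 20 or more UMIs, and the 0 lower became 1 with thinning and with cells of 2 gates kept. In CT26 tumour cell-like cells the 0 higher became 1 when each cell weighed the same, 2 with cells of 2 gates kept and 3 at 20 or more UMIs, and the 0 lower became 2 with cells of 2 gates kept. Causes other than the UMI limit were not tested. Members highest in fibroblast-like cells were 5 to 7. No paired analysis was possible because each group had 1 library. Few cells limit the mock fibroblast-like values, where Mmp11 and Mmp13 had 2 UMIs each.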
